A study of Mus musculus with 14 samples.

Results

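The genes described here are 47 genes of DNA replication and S phase, a set listed by gene function with earlier results of these data known. They fall into 9 roles: licensing and origin recognition, the Cdc45 and GINS helicase partners, the sliding clamp and its loader, the polymerases and primase, the single-strand binding protein RPA, Okazaki fragment maturation, nucleotide supply, chromatin assembly and maintenance methylation, and homologous recombination. The measurement is the chromatin mark H3K9ac (acetylated lysine 9 of histone H3) or H3K9Bu (the butyrylated form of the same lysine) at their promoters, by ChIP-seq of mouse heart. In each deposited table a gene was given the promoter region that lists it and has the highest mean signal, which found 46 of 47 genes in the table of both marks at 0% fat, 46 in that of H3K9ac at 10 and 60% fat, and 45 in that of H3K9Bu at 10 and 60% fat. The same rule found 15530, 15713 and 14509 genes in all.

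Hearts came from male C57Bl/6J mice, 12 weeks old, with no transgene or deletion named in the labels. The mice ate a diet with 0, 10 (the control diet) or 60% of its energy as fat from 4 days before surgery until the hearts were taken 1 week after it. Surgery was transverse aortic constriction (TAC), which narrows the aorta and loads the left ventricle with pressure, or a sham operation. Each mark, surgery and diet has 1 library, made from a pool of 3, so no group has a replicate and no test between groups was made. Whole hearts hold several cell types, and fewer cells of a type and less signal per cell cannot be told apart.

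A replication origin is licensed in G1 when ORC, Cdc6 and Cdt1 load the Mcm2-7 helicase, and it fires in S phase when Cdc45 and the GINS complex join that helicase and the polymerases follow. Many of these genes are classical targets of E2F transcription factors, which RB family proteins hold in check in resting cells. Adult cardiomyocytes seldom enter S phase, whereas fibroblasts, endothelial cells and macrophages of the heart can divide after pressure overload. H3K9ac marks the starts of active genes, and H3K9Bu is an acylation of the same residue that can draw on butyryl-CoA, an intermediate of fatty acid oxidation.

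The gene list of a region also names genes whose start lies outside it, and the strongest listed region was not at the gene itself for every member. It lay outside the gene's own promoter window (7500 bp before to 2500 bp after the start) for 9, 8 and 10 members in the 3 tables. Orc1, Pcna, Rfc4, Prim1, Pole2, Tk1, Uhrf1 and Dnmt1 were among them in each table. For Uhrf1 at 0% fat, for example, it was centred 22890 bp from the gene's start, at the promoter of Kdm4b. Values are therefore given by the rule and also, as a choice made after seeing the data, for the strongest promoter region centred within 2000 bp of the gene's own start. That second reading covered 44, 45 and 42 members, against 13290, 13475 and 12380 genes in all. Values of single genes below come from the region at their own start. Mcm4, a subunit of the helicase, was in the gene list of no promoter region in any table. Dnmt1, the maintenance DNA methyltransferase, had no region at its start in any table, and Pcna had one only for H3K9ac at 10 and 60% fat. Cdc6 and Mcm10 had none in the H3K9Bu table at 10 and 60% fat.

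Promoter sequences are printed for the members with the 4 highest and the 2 lowest mean ratios of TAC to sham H3K9ac among those with a sequence. They show the bases at the gene's start, and their overlap with the measured regions was not checked. Each runs from 250 bases before to 50 bases after the start in RefSeq's GRCm38.p6 annotation, the assembly that mm10 names, 5′ to 3′ on the gene's strand. Capitals mark an E2F octamer (TTTCCCGC, TTTCGCGC, TTTGCCGC or TTTGGCGC on either strand) or a CCAAT box, the core of the NF-Y site, on either strand. The first 4 are the highest and Orc6 and Cdc45 the lowest.
Mcm10 (chr2:5012742-5013041, - strand): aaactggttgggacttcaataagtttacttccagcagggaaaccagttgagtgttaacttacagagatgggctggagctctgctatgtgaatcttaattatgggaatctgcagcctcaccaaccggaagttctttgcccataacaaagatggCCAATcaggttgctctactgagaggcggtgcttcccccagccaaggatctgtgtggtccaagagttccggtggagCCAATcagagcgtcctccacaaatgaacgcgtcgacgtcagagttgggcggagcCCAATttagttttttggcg
Cdc6 (chr11:98907901-98908200, + strand): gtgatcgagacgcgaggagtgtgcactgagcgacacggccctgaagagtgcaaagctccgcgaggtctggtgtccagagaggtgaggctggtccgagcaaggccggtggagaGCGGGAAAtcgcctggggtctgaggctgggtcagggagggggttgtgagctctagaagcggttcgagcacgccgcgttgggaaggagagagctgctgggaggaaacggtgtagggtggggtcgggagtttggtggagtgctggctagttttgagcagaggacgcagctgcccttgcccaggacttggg
Uhrf1 (chr17:56303087-56303386, + strand): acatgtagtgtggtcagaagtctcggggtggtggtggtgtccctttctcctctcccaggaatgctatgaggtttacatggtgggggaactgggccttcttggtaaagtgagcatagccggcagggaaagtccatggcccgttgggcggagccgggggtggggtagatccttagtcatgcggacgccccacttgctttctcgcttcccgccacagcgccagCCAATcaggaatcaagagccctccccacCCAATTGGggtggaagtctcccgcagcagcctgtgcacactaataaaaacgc
Tk1 (chr11:117825965-117826264, - strand): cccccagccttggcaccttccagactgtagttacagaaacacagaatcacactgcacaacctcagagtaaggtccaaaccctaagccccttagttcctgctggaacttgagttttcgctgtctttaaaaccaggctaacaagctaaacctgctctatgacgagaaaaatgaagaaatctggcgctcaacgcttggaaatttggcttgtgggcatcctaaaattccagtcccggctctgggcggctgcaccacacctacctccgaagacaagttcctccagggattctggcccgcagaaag
Orc6 (chr8:85299382-85299681, + strand): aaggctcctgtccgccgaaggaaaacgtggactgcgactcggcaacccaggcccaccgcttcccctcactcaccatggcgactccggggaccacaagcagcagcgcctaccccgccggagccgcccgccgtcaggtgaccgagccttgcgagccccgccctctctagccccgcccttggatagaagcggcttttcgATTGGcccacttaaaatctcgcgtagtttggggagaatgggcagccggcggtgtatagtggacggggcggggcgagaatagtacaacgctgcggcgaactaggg
Cdc45 (chr16:18811923-18812222, - strand): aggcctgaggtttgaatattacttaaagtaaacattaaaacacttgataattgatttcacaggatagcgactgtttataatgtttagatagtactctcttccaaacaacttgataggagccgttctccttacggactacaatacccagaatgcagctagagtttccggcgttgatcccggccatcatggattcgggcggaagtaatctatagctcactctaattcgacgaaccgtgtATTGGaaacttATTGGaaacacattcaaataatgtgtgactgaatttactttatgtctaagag
Cdc6 holds an E2F octamer whose first base lies 138 bases before the start. No E2F octamer stands in the other 5 windows, and CCAAT stands in those of Mcm10, Uhrf1, Orc6 and Cdc45.

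An E2F octamer occurred in 13 of 37 members with a RefSeq promoter and a ratio at all 3 diets (35.1%), against 4.24% of 9059 genes. CCAAT occurred in 24 of the 37 (64.9%), against 38.1% of genes, and the CHR element TTTGAA, read on both strands, in 3 (8.11%), against 10.7%. The 30 bases around the first E2F octamer, in capitals, are shown for the 5 members of highest ratio after Cdc6 that hold one, and for Mcm7, the lowest that does.
Pole2 (chr12:69228162-69228191, - strand): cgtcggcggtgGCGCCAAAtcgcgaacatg
Mcm6 (chr1:128359797-128359826, - strand): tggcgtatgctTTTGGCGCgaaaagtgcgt
Brca2 (chr5:150522442-150522471, + strand): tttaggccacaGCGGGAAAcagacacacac
Rfc3 (chr5:151651200-151651229, - strand): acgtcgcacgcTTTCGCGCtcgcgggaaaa
Mcm5 (chr8:75109345-75109374, + strand): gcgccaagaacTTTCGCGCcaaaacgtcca
Mcm7 (chr5:138172030-138172059, - strand): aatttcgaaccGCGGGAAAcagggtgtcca
A match describes these letters only and shows no binding. Each gene's log2 ratio of TAC to sham H3K9ac was averaged over the diets. The median over the 13 members with the octamer was 0.28, and over the others 0.20. For CCAAT the medians with and without it were 0.24 and 0.24. For the CHR element, held by 3 members, they were 0.15 and 0.25. These differences were not tested.

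H3K9ac at the starts of replication genes was higher in the TAC than in the sham library for most members at each diet. Ratios are log2 of the average signal plus 1, less the median over all genes measured the same way, so that a typical gene stands at 0. That median was 0.26, 0.06 and 0.17 at 0, 10 and 60% fat. At their own starts the members had a median log2 ratio of 0.32 at 0% fat, 0.14 at 10% and 0.23 at 60%, with 41 of 44, 35 of 45 and 41 of 45 above 0. Those at least 1.5-fold above the typical gene numbered 11, 3 and 9, against 6.16%, 1.31% and 3.32% of all genes. None was 1.5-fold below it, against 4.35%, 0.853% and 2.12% of all genes.

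By the rule, neighbours' promoters included, the medians were smaller, at 0.11, 0.06 and 0.11. Of 46 genes, 34, 30 and 35 were above 0, and 5, 1 and 4 were at least 1.5-fold higher, against 5.76%, 1.16% and 3.12% of all genes. At 0% fat 2 were 1.5-fold lower, against 3.43% of all genes. None was at 10 or 60% fat, against 0.827% and 1.79%.

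**Figure D1:**
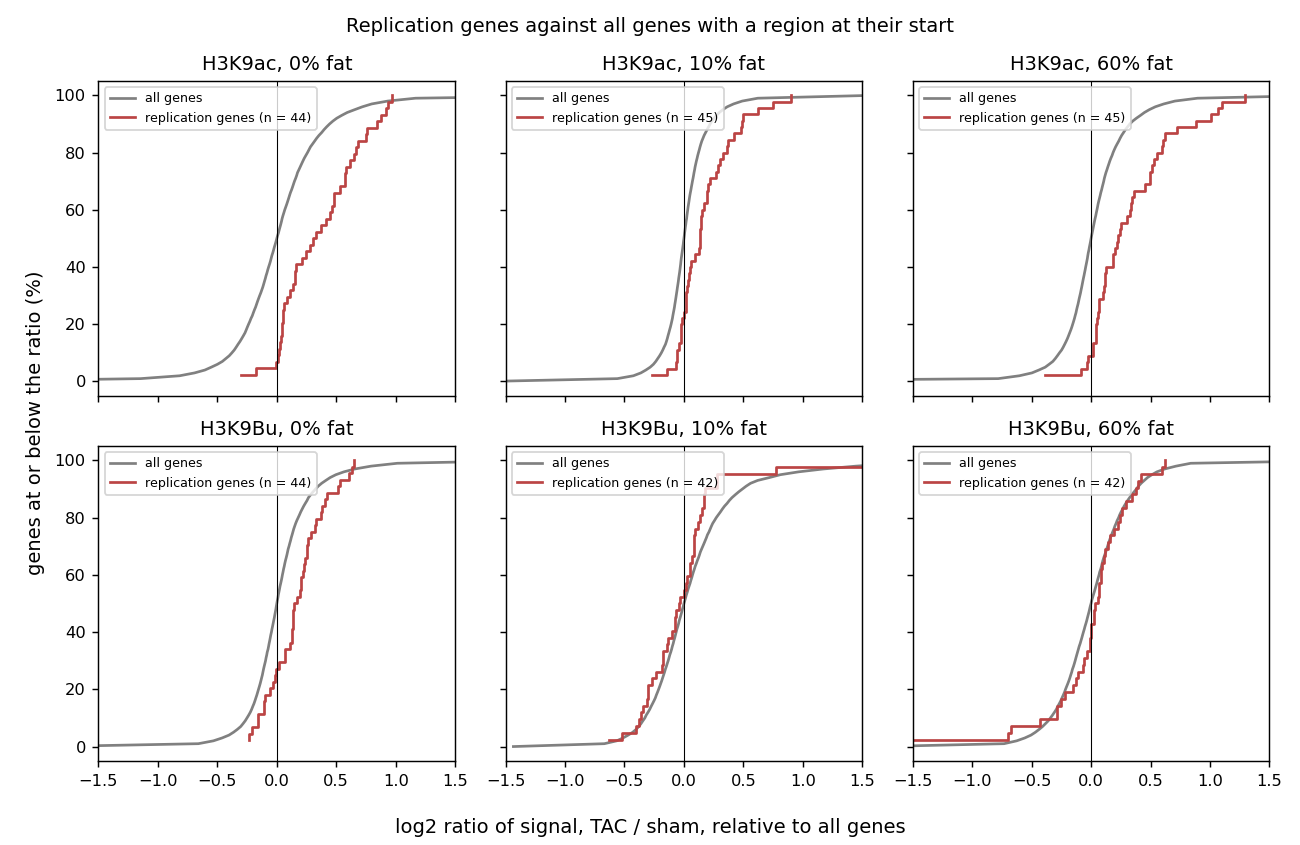
Cumulative share of genes (vertical axis, %) at or below each log2 ratio of TAC to sham signal relative to all genes (horizontal axis), for H3K9ac (top) and H3K9Bu (bottom) at 3 diets, with regions at the genes' own starts. The red steps are replication genes and the grey line all genes. For H3K9ac the red line lies to the right at each diet, and for H3K9Bu it does so at 0% fat, where the median is 0.15. Mcm2 (2.84, H3K9Bu, 10% fat) and Pola1 (-1.51, H3K9Bu, 60% fat) lie beyond the axis.

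The TAC ratios at the 3 diets share no library. At their own starts 31 of 44 members were above 0 at all 3, against 22.3% of 12938 genes, and by the rule 22 of 46 were, against 21.9% of 15246. One member, Pole, was below 0 at all 3, against 22.3% of genes, and by the rule 6 were, against 22.4%. Mcm10 alone was at least 1.5-fold higher at all 3 diets, against 0.356% of genes. Without the libraries of the 0, 10 or 60% fat diet, 31, 39 and 33 of the 44 members were above 0 at both other diets, against 32.3%, 33.6% and 29.1% of genes.

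Precision comes from the tags behind each region, estimated from the deposited values. The median member had 265 to 390 tags in an H3K9ac library. Exact Clopper-Pearson intervals at 95% of the relative ratio cover counting error only. They lay wholly above 0 for 25 of 44 members at 0% fat, 15 of 45 at 10% and 24 of 45 at 60%, against 19.8%, 7.26% and 15.4% of all genes. They lay wholly below 0 for 2, 1 and 1, against 24.9%, 7.02% and 13.8%. The 2 were Pole and Orc6, and Pole was the 1 at both other diets. In the sentences that follow, brackets hold these intervals.

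**Figure D2:**
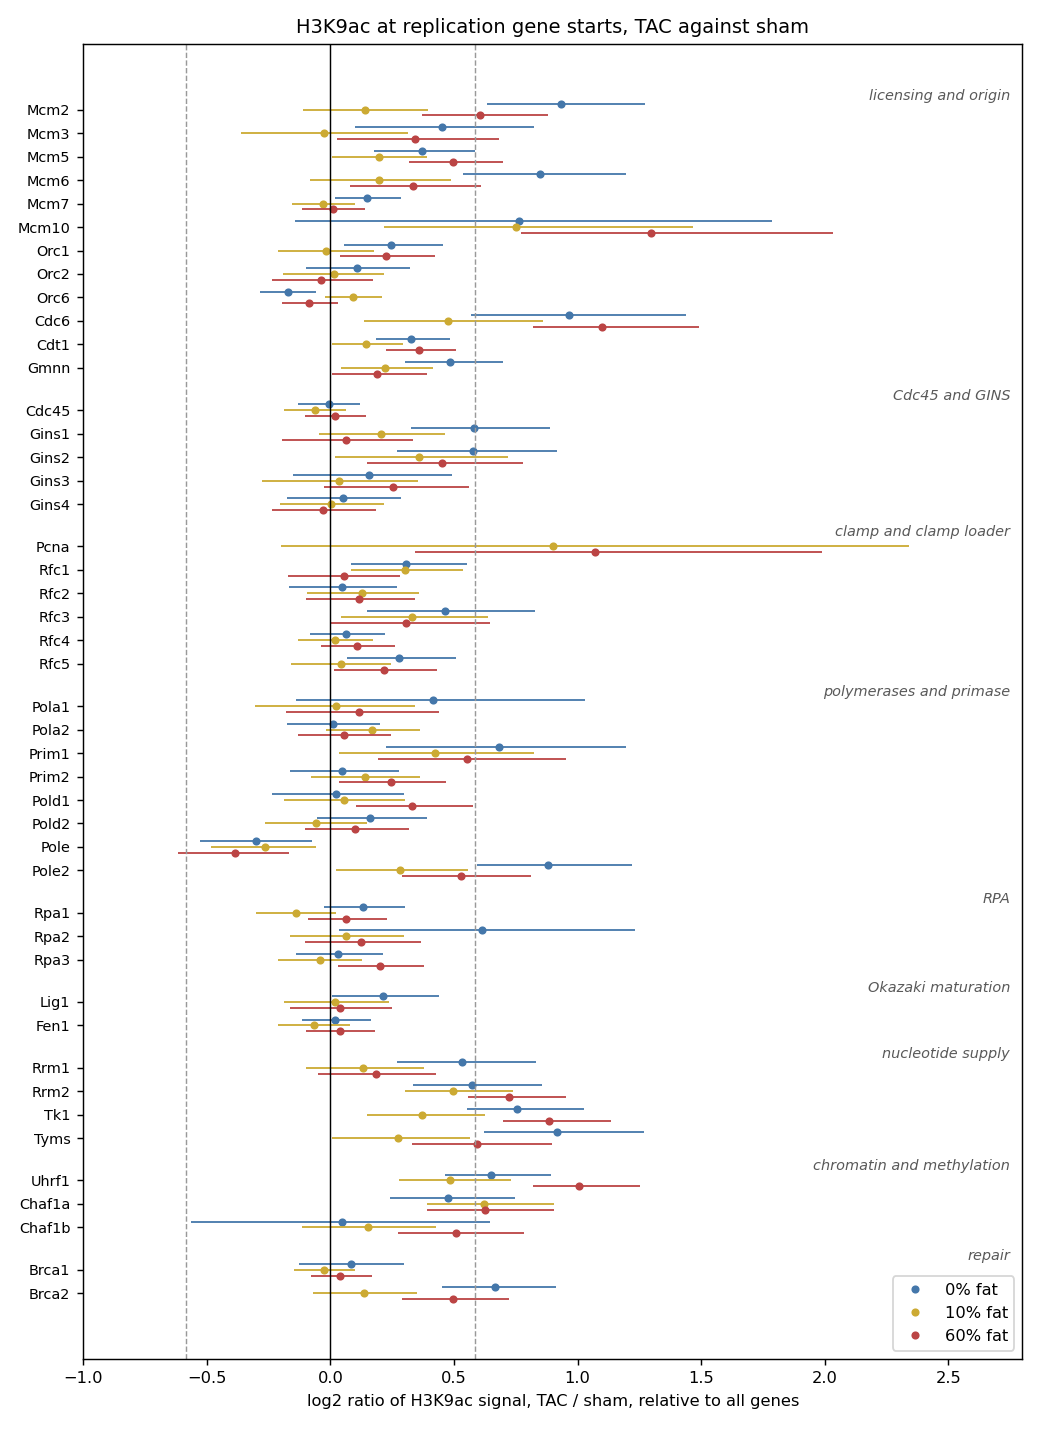
Log2 ratio of TAC to sham H3K9ac signal relative to all genes (horizontal axis) for each replication gene with a region at its start, grouped by role, at 0, 10 and 60% fat. Points are ratios, lines exact 95% counting intervals, and dashed lines mark 1.5-fold. The highest points are Cdc6 (0.96) at 0% fat, Pcna (0.90) at 10% and Mcm10 (1.30) at 60%, and Pole lies left of 0 at each diet.

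Of the licensing and origin genes, 11 of 12 were above 0 at 0% fat, 9 at 10% and 10 at 60%, with median log2 ratios of 0.41, 0.14 and 0.34. Mcm10, which helps turn the loaded helicase into an active fork, had H3K9ac signals of 14.7, 12.1 and 10.3 in the sham libraries at 0, 10 and 60% fat and 30.9, 22.1 and 30.2 in the TAC libraries. Levels can be set side by side only within a table, that is at 0% fat and, separately, at 10 and 60% fat. Signals, here and below, are as deposited, and in them the typical gene also rose. The median signal over all gene starts was 55.2 in the sham and 64.7 in the TAC library at 0% fat. It was 56.4 and 59.0 at 10% fat and 53.9 and 61.2 at 60%. Without centring, 55.5% of all genes were higher in the TAC library at all 3 diets. A TAC signal above the sham signal is therefore not particular to the members. The log2 ratios of Mcm10 were 0.76 (-0.14 to 1.78), 0.75 (0.22 to 1.47) and 1.30 (0.77 to 2.03). The region at 0% fat was 228 bp long and held an estimated 15 and 31 tags, and the interval there spans 0.

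Cdc6, the ATPase that loads the helicase with ORC, had signals of 21.7, 19.4 and 18.6 in the sham and 52.0, 28.7 and 46.4 in the TAC libraries. Its log2 ratios were 0.96 (0.57 to 1.44), 0.48 (0.14 to 0.86) and 1.10 (0.82 to 1.49). By the rule Cdc6 at 0% fat was read at the promoter of Rara, where the TAC library was lower, with a log2 ratio of -0.87.

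The helicase subunits were not alike. Mcm2 had signals of 38.8, 46.8 and 38.6 in the sham and 89.8, 53.9 and 66.8 in the TAC libraries, from a region shared with the promoter of Tpra1. Mcm6 had 34.8, 30.6 and 33.0 in the sham and 75.9, 36.8 and 47.2 in the TAC libraries. For both genes the gap at 10% fat was small. The log2 ratios at 0, 10 and 60% fat were 0.93, 0.14 and 0.61 for Mcm2 and 0.85, 0.20 and 0.33 for Mcm6. At 10% fat the interval of each gene spans 0.

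Mcm5 followed with log2 ratios of 0.37, 0.20 and 0.50, each with an interval above 0. Mcm3 had 0.45, -0.03 and 0.34, and its interval spans 0 at 10% fat. Mcm7, whose region also covers Cops6 and a microRNA cluster, had 0.15, -0.03 and 0.01. Mcm7 thus stood near the typical gene at 10 and 60% fat, although it belongs to the same hexamer.

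Cdt1 and Gmnn act on helicase loading itself. Cdt1, the other loading factor, had 0.33, 0.15 and 0.36, and Gmnn, the inhibitor of Cdt1, had 0.48, 0.22 and 0.19, with every interval above 0. Of the ORC subunits, Orc1 had 0.25, -0.02 and 0.23 and Orc2 had 0.11, 0.01 and -0.04. Orc6, whose region is shared with Vps35, had -0.17 (-0.28 to -0.06), 0.09 (-0.02 to 0.21) and -0.09 (-0.20 to 0.03). Its signal was among the highest of the members, at 83.2, 89.5 and 93.7 in the sham and 88.3, 99.7 and 99.3 in the TAC libraries.

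**Figure D3:**
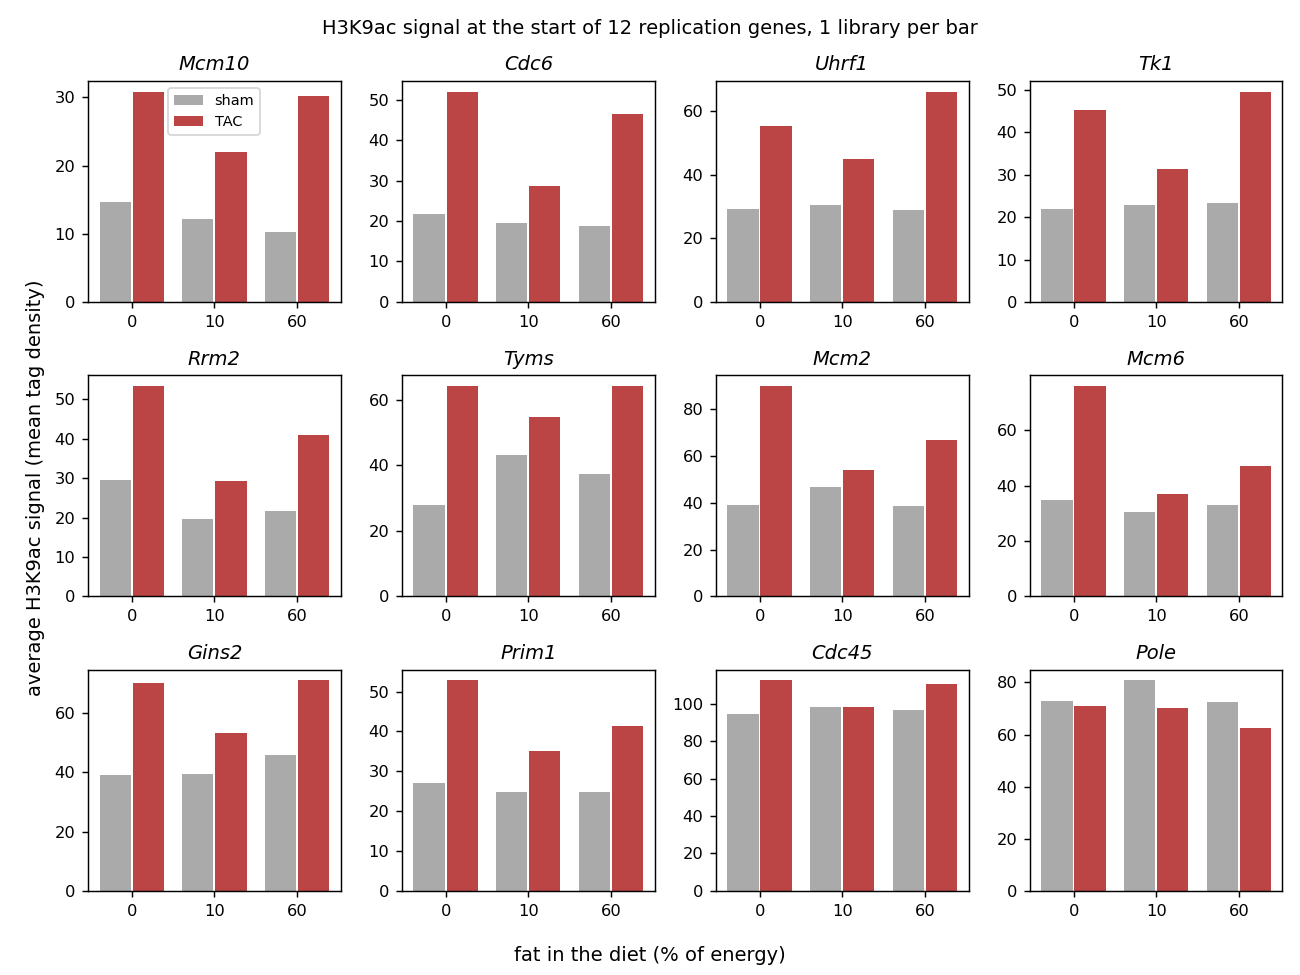
Average H3K9ac signal (vertical axis, mean tag density over the region at the gene's start) in the sham (grey) and TAC (red) library at 0, 10 and 60% fat (horizontal axis) for 12 replication genes, 1 library per bar. The 0% fat bars come from another table than the others, with its own regions. The TAC bar is the taller in each pair except for Pole, and for Cdc45 at 10% fat, where they measure 98.3 and 98.2. Signals are as deposited, and over all gene starts the median log2 ratio of TAC to sham was also above 0, at 0.26, 0.06 and 0.17. Most of the 12 genes were picked from those of highest ratio.

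Among the helicase partners, Gins2 stood apart from Cdc45. Gins2, a GINS subunit whose region counts 2 promoters and also lists Gse1 and Gm10614, had signals of 39.0, 39.5 and 45.8 in the sham and 70.2, 53.2 and 71.0 in the TAC libraries, and log2 ratios of 0.58, 0.36 and 0.45 with each interval above 0. Gins1 had 0.58 (0.32 to 0.89) at 0% fat, but 0.21 (-0.04 to 0.46) and 0.06 (-0.19 to 0.33) at 10 and 60%. Gins3 ranged from 0.03 to 0.25 and Gins4 from -0.03 to 0.05, with intervals that span 0. Cdc45, which completes the active helicase and shares its region with Ufd1l, had -0.01, -0.06 and 0.02.

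Pcna, the sliding clamp, had little H3K9ac at its own start. The region was centred 1559 bp after the start, was 400 bp long, and held signals of 5.1 and 10.5 in the sham and 10.8 and 26.1 in the TAC libraries at 10 and 60% fat. Both TAC values were higher at the same diet, with log2 ratios of 0.90 (-0.20 to 2.34) and 1.07 (0.34 to 1.99), but the sham library at 60% fat stood at nearly the level of the TAC library at 10%. The clamp loader genes were lower. Rfc3 had 0.46, 0.33 and 0.31, Rfc1 0.31, 0.30 and 0.05 and Rfc5 0.28, 0.04 and 0.22, while Rfc2 and Rfc4 lay between 0.02 and 0.13. All measured clamp and loader genes were above 0, 5 of 5 at 0% fat and 6 of 6 at each other diet.

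The polymerase genes differed widely. Pole2, the second subunit of the leading-strand polymerase epsilon, had signals of 26.9, 36.6 and 34.4 in the sham and 60.4, 46.7 and 56.4 in the TAC libraries. Its log2 ratios were 0.88 (0.59 to 1.22), 0.28 (0.02 to 0.56) and 0.53 (0.29 to 0.81). Pole, the catalytic subunit of the same enzyme, had signals of 73.1, 80.8 and 72.7 in the sham and 70.9, 70.0 and 62.4 in the TAC libraries.

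So the TAC library was lower for Pole at each diet, with log2 ratios of -0.30 (-0.53 to -0.08), -0.27 (-0.48 to -0.06) and -0.39 (-0.62 to -0.17). The Pole region for H3K9ac was centred at -647 bp from its start at 0% fat and at -633 bp at the other diets, towards the neighbour Pxmp2, whose promoter it also covers. The signal cannot be assigned to either gene. The same holds for the other members whose region lies at more than 1 promoter. Among them are Mcm2, Uhrf1, Tk1, Gins2, Prim1, Chaf1a and Brca2, whose ratios were high.

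Prim1, the primase that starts each Okazaki fragment, whose region also lists Hsd17b6 and Gm10120, had signals of 27.0, 24.7 and 24.7 in the sham and 52.8, 35 and 41.5 in the TAC libraries. Its log2 ratios were 0.68, 0.42 and 0.55, each with an interval above 0, whereas its partner Prim2 had 0.05, 0.14 and 0.24. The polymerase alpha and delta genes Pola1, Pola2, Pold1 and Pold2 ranged from -0.06 to 0.41, and of their 12 intervals, that of Pold1 at 60% fat lay above 0.

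RPA coats single-stranded DNA at the fork, and Fen1 and Lig1 trim and join Okazaki fragments. Rpa1, Rpa3, Fen1 and Lig1 lay between -0.14 and 0.21 at every diet. Rpa2 had 0.61 (0.03 to 1.23) at 0% fat, from a 313 bp region centred at -431 bp from the start, and 0.06 and 0.13 at the other diets, from a region centred at 419 bp. All 3 RPA genes were above 0 at 0 and 60% fat and 1 of 3 at 10% fat.

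The nucleotide supply genes were above 0 in 4 of 4 cases at each diet, with median log2 ratios of 0.66, 0.32 and 0.66. Rrm2, the regulatory subunit of ribonucleotide reductase that is made in S phase, had signals of 29.6, 19.5 and 21.6 in the sham and 53.4, 29.2 and 40.9 in the TAC libraries. Its log2 ratios were 0.57, 0.49 and 0.72. The large subunit, Rrm1, had 0.53 (0.27 to 0.83), 0.13 (-0.10 to 0.38) and 0.18 (-0.05 to 0.43).

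Tk1, the thymidine salvage kinase, whose region counts 2 promoters and also lists Syngr2 and Afmid, had signals of 22.0, 22.9 and 23.4 in the sham and 45.3, 31.3 and 49.6 in the TAC libraries. Its log2 ratios were 0.75 (0.55 to 1.03), 0.37 (0.15 to 0.63) and 0.88 (0.70 to 1.13). Tyms, which makes thymidylate, had 27.9, 43.1 and 37.4 in the sham and 64.3, 54.7 and 64.3 in the TAC libraries, with log2 ratios of 0.92, 0.27 and 0.59. Tk1, Tyms and Rrm2 had every interval above 0.

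The 3 measured chromatin genes were above 0 at each diet, with median log2 ratios of 0.48, 0.49 and 0.63. Uhrf1, which reads hemimethylated DNA behind the fork and brings in Dnmt1, had signals of 29.1, 30.5 and 28.8 in the sham and 55.4, 45.1 and 66.2 in the TAC libraries. Its log2 ratios were 0.65 (0.46 to 0.89), 0.49 (0.28 to 0.73) and 1.00 (0.82 to 1.25). The region also covers the promoter of Arrdc5.

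Chaf1a, the large subunit of the histone chaperone CAF-1, had 34.4, 30.7 and 29.9 in the sham and 57.9, 50.0 and 52.6 in the TAC libraries, from a region shared with Sh3gl1. Its response was even over the diets, with log2 ratios of 0.48, 0.62 and 0.63. Chaf1b, its partner, had 0.05 (-0.56 to 0.65), 0.15 (-0.11 to 0.43) and 0.51 (0.27 to 0.79).

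Of the recombination genes, Brca2 had signals of 50.3, 66.0 and 55.4 in the sham and 96.3, 76.0 and 88.6 in the TAC libraries and log2 ratios of 0.67, 0.14 and 0.50. Its region also covers Zar1l. Brca1, whose region also covers Nbr1, had 0.09, -0.02 and 0.04.

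The 60% fat diet was compared with the 10% fat diet within each surgery, in the same table. These comparisons share their libraries with the TAC comparisons above. In sham hearts the members' H3K9ac did not stand off the typical gene: the median log2 ratio at their own starts was -0.02, with 22 of 45 above 0 and 1 at least 1.5-fold higher (Pcna), against 1.08% of all genes. In TAC hearts the median was 0.13 and 35 of 45 were above 0. The 3 at least 1.5-fold higher, against 1.17% of all genes, were Pcna at 1.15 (0.46 to 2.11), Cdc6 at 0.63 (0.36 to 0.94) and Tk1 at 0.60 (0.42 to 0.82). With a pseudocount of 5 the 3 became 1, against 0.646% of all genes. Among the 35 members past a filter at the 25th percentile of signal, 0 remained, against 0.0099%. No member was 1.5-fold lower, against 1.05% of all genes in sham and 0.868% in TAC hearts.

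In TAC hearts 14 of 45 intervals lay above 0, against 7.58% of all genes, and none below, against 6.38%. In sham hearts 1 lay above 0, that of Orc6, against 5.7%, and none below, against 4.39%. Uhrf1 in TAC hearts stood at 0.50 (0.32 to 0.69) and Rrm2 at 0.42 (0.26 to 0.62). By the rule the medians were 0.01 in sham and 0.04 in TAC hearts, with 0 and 1 of 46 at least 1.5-fold higher, against 0.605% and 1.08% of all genes, and none lower, against 1.17% and 0.726%.

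H3K9Bu at the same genes was higher in the TAC library at 0% fat, and by less than H3K9ac. At their own starts the median log2 ratio was 0.15, with 32 of 44 above 0, 3 at least 1.5-fold higher, against 3.62% of all genes, and none lower, against 1.56%. Without centring that median was 0.09, and the 3 became 1 without centring, 1 with lowess and 0 with a pseudocount of 5. By the rule the median was 0.08, or 0.014 without centring, with 31 of 46 above 0 and 2 at least 1.5-fold higher, against 3.3%. Intervals lay above 0 for 8 members, against 9% of all genes, and below 0 for 1, Rfc4, against 8.62%. Over all gene starts the ratios also spread less, with quartiles of -0.12 and 0.14 for H3K9Bu, against -0.19 and 0.20 for H3K9ac. Smaller ratios in H3K9Bu are thus not particular to the members.

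Rrm2 had an H3K9Bu signal of 20.0 in the sham and 30.5 in the TAC library at 0% fat, a log2 ratio of 0.65 (0.35 to 1.01). Uhrf1 had 17.1 and 25.5, or 0.61 (0.34 to 0.93), and Tyms 28.0 and 39.1, or 0.53 (0.19 to 0.90). Gins2, Chaf1a, Tk1, Pola2 and Cdt1 completed the 8, at 0.51, 0.37, 0.33, 0.25 and 0.22. Rfc4 was at -0.23 (-0.44 to -0.03). Of the 8, all but Pola2 also had an H3K9ac interval above 0 at this diet, and both marks were measured in the same merged regions.

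**Figure D4:**
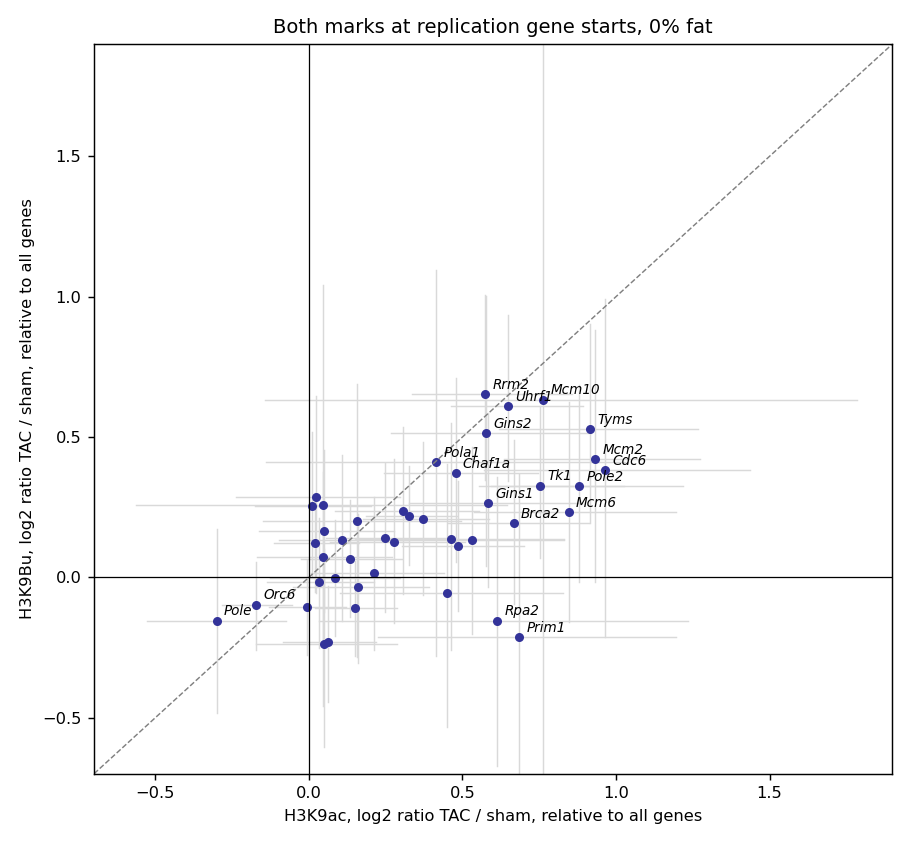
Log2 ratio of TAC to sham signal relative to all genes at 0% fat for H3K9ac (horizontal axis) and H3K9Bu (vertical axis). Each point is 1 of 44 replication genes in the same merged region, with 95% counting intervals as grey lines, and the dashed line marks equal ratios. Above 0 on both axes are 32 of the 44 points, 33 lie below the dashed line, and Rrm2 and Uhrf1 lie close to it.

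At 10 and 60% fat the H3K9Bu ratios of the members centred on the typical gene. The medians at their own starts were -0.04 and 0.04, with 20 and 26 of 42 above 0. At 10% fat 2 were at least 1.5-fold higher, against 7.5% of all genes, and 1 lower, against 1.75%. At 60% fat 2 were higher, against 3.52%, and 3 lower, against 2.56%. By the rule the medians were 0.02 and 0.03, with 1 of 45 higher at each diet, against 8.52% and 3.56% of all genes. The rule left 0 lower at 10% fat, against 1.65%, and 3 at 60% fat, against 2.5%.

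These libraries were thin at the members: the median member held 103 and 56 tags in the sham and TAC library at 10% fat and 47 and 38 at 60%. Of 42 members, 41, 21, 18 and 5 had a called interval in these libraries in that order. Of all 58137 regions, those away from promoters included, 41348, 19628, 29473 and 14679 were called in the same order. The share over gene starts alone was not counted, so the member counts are not read as particular to these genes. The sham library at 10% fat also stood apart. Its median signal over all gene starts was 44.4, against 16.4 to 22.5 in the other 3, and 21352 regions were called in it alone, so each ratio against it rests on a median of all genes of -1.0.

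Uhrf1 was 1 of 2 members with an H3K9Bu interval above 0 at 10% fat, with signals of 25.3 and 21.3 in the sham and TAC libraries and a relative log2 ratio of 0.77 (0.24 to 1.30). The deposited signal is lower in the TAC library and the relative ratio is positive only after the shift of all genes is taken off. The other was Mcm2, at 2.84 (2.15 to 3.85), from a 436 bp region centred at -1619 bp from its start. There the sham library at 10% fat had a signal of 8.3 and no called interval, whereas the TAC library had 32.1 and the libraries at 60% fat 33.1 and 26.5. It is the sham library at 10% fat that differed from the other 3 at this region. Intervals lay below 0 for Gins1 (-0.63) and Brca1 (-0.31) at 10% fat and for Gins4 (-0.67) at 60% fat. All genes had intervals above 0 in 10.5% and below in 8.6% of cases at 10% fat, and in 3% and 3.96% at 60% fat, where no member was above. Above 0 at all 3 diets were 11 of 42 members at their own starts, against 17.7% of 12057 genes, and 11 of 45 by the rule, against 17.7% of 14315.

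Between 60 and 10% fat the members' H3K9Bu had median log2 ratios of -0.09 in sham and -0.07 in TAC hearts. In sham hearts 1 of 42 was at least 1.5-fold higher, Mcm2, against 10.4% of all genes, and 2, Gins1 and Pole2, were lower, against 3.21%. In TAC hearts 4 were higher, against 4.8%, and 1 was lower, against 3.17%. By the rule the medians were -0.05 and -0.06, with 3 of 45 higher in each, against 11% and 5.44% of all genes, and 0 and 1 lower, against 3.25% and 3.18%. The sham comparison again contains the library that stood apart.

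At 0% fat both marks were in 1 table and were compared with each other. The members' ratio of H3K9Bu to H3K9ac stood close to that of the typical gene, with median log2 ratios of 0.07 in sham and -0.05 in TAC hearts, and 30 and 21 of 44 above 0. In sham hearts 6 were at least 1.5-fold higher, against 9.4% of all genes, and in TAC hearts 2, against 5.83%. None was 1.5-fold lower, against 3.69% and 0.677%. Rpa2 had 27.0 for H3K9ac and 50.9 for H3K9Bu in sham hearts, a relative log2 ratio of 1.5 (0.93 to 2.12), and 50.2 and 43.6 in TAC hearts, or 0.72 (0.20 to 1.24). Brca1 had 0.88 (0.67 to 1.09) and 0.78 (0.58 to 0.98). By the rule 3 of 46 were higher in each, against 10.2% and 6.46% of all genes, and 1 was lower in sham and 0 in TAC hearts, against 3.21% and 0.715%.

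The members with the least H3K9ac had the highest ratios. All genes were ranked by mean H3K9ac signal in the libraries of the 10 and 60% fat diets, and the TAC ratio was averaged over the 3 diets. With all ranked genes cut into 3 parts by signal, the 15 members of the lowest part had a median log2 ratio of 0.55, from 0.14 to 0.94, while all genes of that part had 0.08. The 17 members of the middle part had 0.27, against 0.00 for all genes. The 12 of the highest part had 0.04, against -0.03. Over 44 members Spearman's rho between signal percentile and mean ratio was -0.75 and Pearson's r -0.73, against -0.24 and -0.24 over 12938 genes. This is a description across genes that share the same libraries, and 2 of the 3 ratios use the libraries that set the ranking. A region is in a table if any of its libraries had a called interval there, so a weak region can enter through a TAC library alone. Members called in the H3K9ac sham and TAC library were 39 and 44 of 44 at 0% fat, 44 and 44 of 45 at 10%, and 43 and 45 of 45 at 60%. Of all 49314 regions at 0% fat, 27893 and 24559 were called. Of all 38150 at 10 and 60% fat, 28400 and 27281 were called at 10% fat and 28439 and 29249 at 60%. These totals include regions away from promoters and, at 0% fat, regions called for H3K9Bu alone. They are thus not the share over gene starts, which was not counted. The part of entry through a TAC library in the pattern was not tested.

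**Figure D5:**
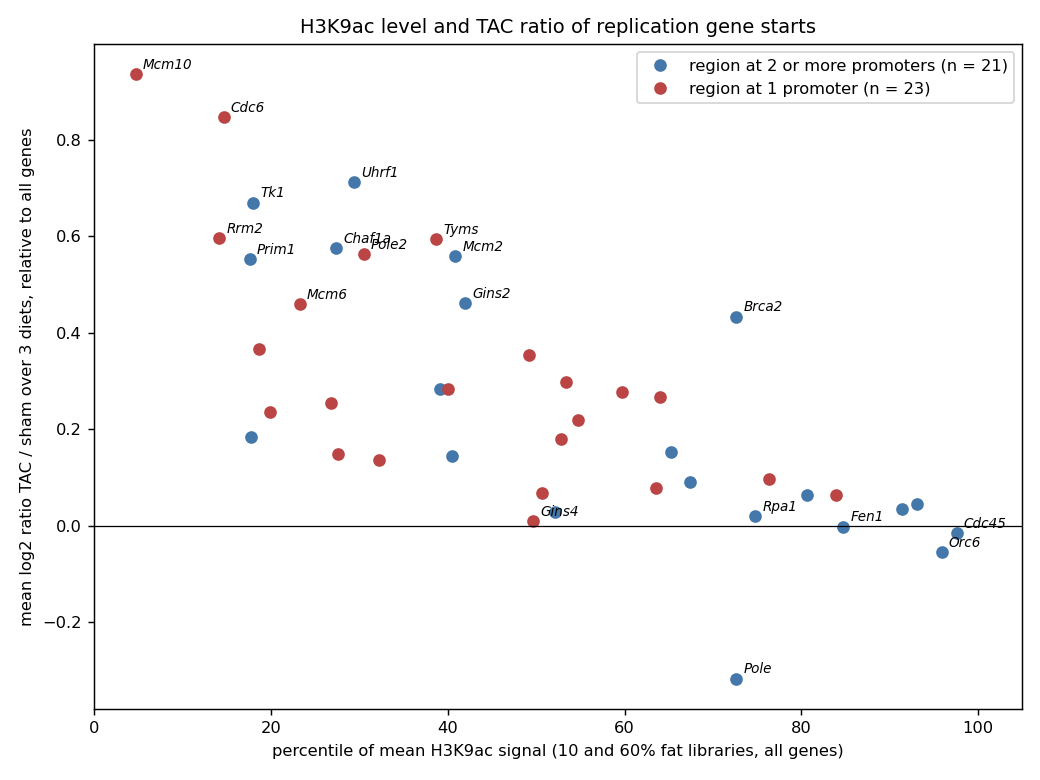
Mean log2 ratio of TAC to sham H3K9ac over 3 diets, relative to all genes (vertical axis), against the percentile of mean H3K9ac signal among all genes (horizontal axis), for 44 replication genes. Blue points are regions at 2 or more promoters and red points regions at 1. Mcm10 and Cdc6 have low signal and high ratios, and Cdc45 and Orc6 high signal and ratios near 0.

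Regions at more than 1 promoter were common among the members: 48.9% in the H3K9ac table at 10 and 60% fat, against 34.8% of all genes. The 21 members with such a region had a median log2 ratio of 0.14, and 17 of them were above 0. The 23 with a region at 1 promoter had a median of 0.27, and all 23 were above 0. Over all genes the medians were -0.02 and 0.02. A CpG island lay in 88.9% of the members' regions and in 80.0% of those of all genes.

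Other genes of the cycle were read the same way, at their own starts. Of 40 other replication genes, 31, 27 and 34 had H3K9ac ratios above 0 at 0, 10 and 60% fat, with medians of 0.16, 0.06 and 0.25. The number at least 1.5-fold higher was 5, 0 and 4. All genes gave 6.16%, 1.31% and 3.32%. Clspn, a mediator of the replication checkpoint, was the highest of these at each diet, at 0.81, 0.44 and 0.98. Mitosis genes were higher, with medians of 0.65, 0.25 and 0.63, 25 of 27, 25 of 28 and 27 of 28 above 0, and 14, 2 and 16 at least 1.5-fold higher, against the same shares of all genes. Mki67, the proliferation marker, had 1.12, 0.85 and 1.57.

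In the E2F and RB family the medians of 13 genes were 0.17, 0.24 and 0.17, with 11, 11 and 9 above 0. At least 1.5-fold higher were 3, 1 and 3, against 6.16%, 1.31% and 3.32% of all genes. E2f8 (0.90, 0.88 and 1.18), E2f7 (0.67, 0.50 and 0.90) and E2f2 (0.68, 0.39 and 0.85) led it at each diet, with intervals above 0. E2f7 and E2f8 are repressors that are themselves made in S phase. Above 0 at all 3 diets were 22 of 27 mitosis genes, 9 of 13 E2F and RB family genes and 21 of 40 other replication genes, against 22.3% of all genes.

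Markers of heart cell types moved between the same libraries, and their part in the ratios of the replication genes was not tested. The 12 of 14 macrophage markers with a region at their start had a summed H3K9ac signal of 235 in the sham and 518 in the TAC library at 0% fat, with a median log2 ratio of 0.92 and all 12 above 0. At 10% fat 10 markers summed to 332 and 345, with a median of -0.003 and 5 above 0, and at 60% fat to 236 and 352, with a median of 0.37 and 8 above 0. The 11 of 12 fibroblast markers measured summed to 287 and 424, 319 and 341, and 281 and 384, with medians of 0.43, 0.003 and 0.24.

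Cardiomyocyte markers, of which 13 of 14 were measured, had medians of -0.26, -0.30 and -0.38 and sums of 791 and 816, 856 and 769, and 753 and 640. Their defining genes carried H3K9ac in every library, and Pln had no region at its start. Endothelial markers, 9 of 12 at 0% fat and 10 at the other diets, had medians of -0.24, -0.01 and 0.04 and sums of 530 and 532, 476 and 493, and 480 and 528. No measured marker of any list was at 0 in any library, and no lymphocyte marker of 10 had a region at its start.

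The same markers moved in H3K9Bu. At 0% fat the 12 macrophage markers summed to 125 in the sham and 215 in the TAC library, with a median log2 ratio of 0.81. All 12 were above 0 and 10 were at least 1.5-fold higher, against 3.62% of all genes. The 13 cardiomyocyte markers summed to 532 and 368, with a median of -0.46 and 1 above 0. Fibroblast and endothelial markers had medians of 0.16 and -0.20. At 10 and 60% fat the medians were -0.08 and 0.21 for 8 macrophage markers, -0.36 and -0.28 for 14 cardiomyocyte markers, 0.18 and 0.33 for 6 fibroblast markers and 0.21 and 0.02 for 10 endothelial markers.

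As a share of all tags in regions at gene starts, the replication genes took 0.260% in the sham and 0.321% in the TAC library for H3K9ac at 0% fat, with exact intervals of 0.255 to 0.264% and 0.317 to 0.326%. At 10% fat the shares were 0.308% and 0.332%, with intervals of 0.304 to 0.313% and 0.327 to 0.337%, and at 60% fat 0.307% and 0.361%, with 0.302 to 0.312% and 0.356 to 0.366%. These intervals take the pooled tags of a library as the sample. They cover counting error only, leave out variation between libraries and between genes, and are no test of surgery. Within that limit, the sham and TAC intervals do not overlap at any diet. For H3K9Bu they do not at 0% fat, with 0.291% (0.285 to 0.297%) and 0.315% (0.309 to 0.322%). They do at 10% fat, with 0.301% (0.294 to 0.309%) and 0.292% (0.281 to 0.302%), and at 60% fat, with 0.269% and 0.272%. With regions chosen by the rule, the sham and TAC shares for H3K9ac lay closer together. They were 0.437% and 0.461% at 0% fat, 0.454% and 0.473% at 10% fat, and 0.458% and 0.491% at 60% fat.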

How the data were processed

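The submitters' processing notes name BWA, SICER and the mm10 build. Versions, tag filters and scaling between libraries are not given in the sources used here, and the 2 pooled inputs were not used. Each of the 3 deposited tables joins, per the file headers, the intervals of 4 libraries into merged regions. Values are the authors' signal per region, as an average and a peak tag density, per the file headers. The remaining values of other kinds are deposited annotation: interval calls, length, promoter count, CpG island count and gene list. The authors' maximum tag number equals the larger average signal times length over 224 in 483776 of 483776 values, within a relative 1e-06, and this relation gave tags per library (2543841 to 9163220 in all regions).

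Ratios were taken within a table on the log2 scale, log2 of signal plus a pseudocount of 1, which understates differences at low signal, and centred on the median over all genes. With 1 library per group no test was made, and no fit of surgery with diet as a block, which would take the diets as replicates, was run. A call was 1.5-fold. Exact (Clopper-Pearson) intervals at 95% cover counting error only, and PCR duplicates may remain. The calculation was tested on simulated tags. Members and lists were chosen with earlier results of these data known. Any member may be named. Members named with their signals were up to 8 highest and 4 lowest per TAC comparison with an interval that excludes 0, and up to 3 highest of each other list. The windows around E2F octamers and the region at a gene's own start were chosen after seeing the data. Alternatives were no centring, lowess (fraction 0.3), peak signal, a pseudocount of 5, a filter at the 25th percentile of signal, the own promoter window, the own start, and leaving out a diet. Python 3.11.15, NumPy 2.4.6, pandas 2.3.3, SciPy 1.17.1, statsmodels 0.14.6 and matplotlib 3.10.9 were used.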

Additional observations from a re-analysis of the deposited data

How the results depend on the processing

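No paired analysis was possible because each group has 1 library and the groups share only 1 replicate number, and no replicate could be left out; a fit that takes the 3 diets as blocks was not run. Values here are by the rule unless said otherwise, and the cause of a shift was not tested. Taking the region at a gene's own start (chosen after seeing the data) gave TAC medians of 0.32 and 0.23 for H3K9ac at 0 and 60% fat, 0.15 for H3K9Bu at 0% fat, and 0.13 for 60 against 10% fat H3K9ac in TAC hearts. Members past 1.5-fold in either direction became 11, 3 and 9 for the H3K9ac TAC comparisons at 0, 10 and 60% fat, 3 for H3K9Bu at 10% fat, and 1 and 3 for H3K9ac between the fat diets in sham and TAC hearts. With the own promoter window they were 11, 2 and 7, then 4 for H3K9Bu at 0% fat, 1 and 3 for H3K9ac between fat diets, and 1 for H3K9Bu between fat diets in sham hearts.

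Without centring, H3K9ac TAC medians were 0.37 and 0.28 at 0 and 60% fat and H3K9Bu medians -0.99 and -0.35 at 10 and 60% fat, so that the sign of the H3K9Bu values rests on centring. Between fat diets they were -0.058 for H3K9ac in sham hearts and -1.13 and -0.50 for H3K9Bu in sham and TAC hearts, and between marks -0.59 and -0.97. Counts past 1.5-fold without centring were 14 and 8 for H3K9ac TAC at 0 and 60% fat, 1, 43 and 9 for H3K9Bu TAC at 0, 10 and 60%, 39 and 17 for H3K9Bu between fat diets and 24 and 44 between marks. Members above 0 at all 3 diets became 38 for H3K9ac and 0 for H3K9Bu. At own starts these were 41 of 44 and 0 of 42, where all genes moved to 55.5% and 0.572%.

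Medians near 0 changed sign. H3K9Bu TAC at 60% fat did so without centring, and at 10% fat also with a pseudocount of 5, the own window and the own start. H3K9ac between fat diets in sham hearts did so without centring, with peak signal, the filter and the own start. The ratio of marks in sham hearts did so without centring, with lowess and the filter, and H3K9Bu between fat diets in sham hearts with peak signal (0.046). Other settings mainly moved counts. The signal filter gave 0, 1 and 0 for H3K9ac TAC at 10 and 60% fat and 60 against 10% fat in TAC hearts, 0 and 2 for H3K9Bu TAC at 0 and 60% fat, 2 for H3K9Bu between fat diets in TAC hearts, and 7 members above 0 at 3 diets for H3K9Bu. Lowess gave 4 and 1 at 0% fat for H3K9ac and H3K9Bu. Peak signal gave 0 for H3K9ac TAC at 10% fat, 1 and 5 between fat diets in sham hearts for H3K9ac and H3K9Bu, 8 in TAC hearts for H3K9Bu, and 7 between marks in sham hearts. A pseudocount of 5 gave 0 for H3K9ac between fat diets in TAC hearts, 0 and 1 for H3K9Bu TAC at 0 and 60% fat, 1 for H3K9Bu between fat diets in TAC hearts and 2 between marks in sham hearts. Leaving out the 10 or 60% fat libraries gave 17 and 17 members above 0 at the other diets for H3K9Bu. Counting each pair of a median or count and an alternative once, 58 pairs moved and 130 did not.

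At the genes' own starts, lowess left H3K9ac TAC medians at 0.30, 0.12 and 0.22 and 29 of 44 members above 0 at 3 diets, peak signal 0.29, 0.06 and 0.20 and 24 of 44, and the signal filter 0.25, 0.07 and 0.19 and 20 of 33. Tags per member are fewest for H3K9Bu at 10 and 60% fat.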

Other observations

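Regions without a promoter whose gene list names a replication gene were few: 32 regions of 11 genes in the table of both marks at 0% fat, 23 of 9 genes for H3K9ac at 10 and 60% fat, and 36 of 11 genes for H3K9Bu at these diets. At 0% fat their median log2 ratio of TAC to sham, relative to all such regions, was -0.42, with 8 of 32 above 0 and 14 at least 1.5-fold lower, against 23.9% of all 20530 regions without a promoter. At 10 and 60% fat it was 0.14 and 0.09, with 15 and 14 of 23 above 0. For H3K9Bu the medians were 0.06, 0.08 and 0.23 at 0, 10 and 60% fat. Regions of the same gene are not independent values, and none was tied to its gene by any measurement here.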
